A study of Rattus norvegicus with 12 samples.

Results

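Aminoacyl-tRNA synthetases join each amino acid to its tRNA, and liver cells use separate enzymes for this in the cytosol and in mitochondria. The 35 synthetase genes described here were chosen by name out of 39002 genes and unnamed probes on the array. The members were 19 genes of cytosolic enzymes, Farsa and Farsb being subunits of the same one, and 16 genes of mitochondrial enzymes. A probe belonged to a member when its RefSeq accession was that of the gene, and symbols that end in 2, together with Ears2, Fars2 and Pars2, were taken as mitochondrial. By this rule 32 members had a probe, and all 32 were bright enough to be tested. No probe was found for Iars2, Lars2 or Mars2, so 13 of the 16 mitochondrial genes were measured.

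Liver RNA came from 12 adult male Wistar rats that had eaten diets of equal energy content for 4 weeks. The low protein diet of 6 rats held 5% casein and the control diet of 6 rats held 14% casein, with no other treatment and no altered allele named in the labels. Each rat had a single-colour microarray of its own, and the comparison asks which liver transcripts differ after protein undernutrition. Food intake and body weight were not analysed here.

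A synthetase activates its amino acid with ATP and then loads it onto the matching tRNA, which carries it to the ribosome. The nucleus encodes both sets. Cytosolic enzymes supply the translation of nuclear mRNA, which in liver includes the plasma proteins, while mitochondrial enzymes supply the translation of the few proteins encoded in mitochondrial DNA. Gars1 and Kars1 serve both compartments, and no separate mitochondrial glutaminyl enzyme exists in mammals, because glutamine is made on the mitochondrial tRNA by an amidotransferase. When an amino acid is short, uncharged tRNA activates the kinase Gcn2, translation of the transcription factor ATF4 rises, and ATF4 is known to act on genes that carry a C/EBP-ATF response element.

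Values are signals scaled to the 75th percentile of their own array, written as a percentage of it, and log2 changes are low protein minus control. The 75th percentile lay between 942 and 1317 intensity units in low protein arrays and between 944 and 1305 in control arrays. The share of spots well above background was 61.2% to 69.9% in low protein arrays and 65.0% to 67.8% in control arrays. Every measured member was well above background on all 12 arrays except Aars2, which was so on 5 of the 6 low protein arrays. The arrays lay on 2 slides: on slide 2 were low protein rats 5 and 6 with control rats 2 and 4, and on slide 1 were the other 8. The tested set, called all genes below, held 21874 genes and unnamed probes, of which 11395 were named genes. Its median log2 change was -0.03. In whole liver, fewer cells of a type and less RNA per cell cannot be told apart.

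Transcripts of most cytosolic synthetases were more abundant in low protein livers, and no measured mitochondrial synthetase passed the same test. Of the 19 cytosolic members, 13 rose and none fell at an adjusted p under 0.05 (limma, Benjamini-Hochberg over all genes tested), which is 68.4% of them. Over all genes tested, 3.48% were higher and 3.05% lower by that rule. In 11 of the 19 every low protein rat lay above every control rat, as did 3.00% of all genes. The median log2 change of the cytosolic members was 0.62, with a range of -0.17 to 1.28, and 18 of 19 values were positive. Of the 13 measured mitochondrial members, 0 were higher and 0 were lower, and their median was 0.11. Without adjustment, limma's p was under 0.05 for 15 cytosolic and 2 mitochondrial members, all 17 of them higher, against 10.3% of all genes higher by that rule.

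**Figure D1:**
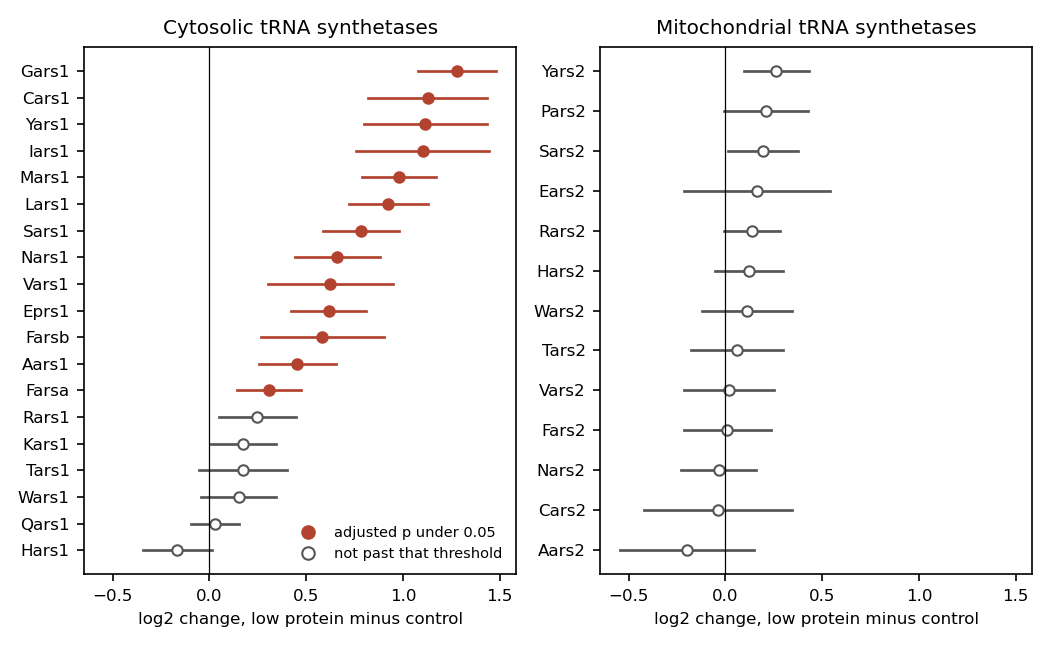
The log2 change of each measured synthetase (low protein minus control) is drawn as a point with its 95% confidence interval, cytosolic genes on the left and mitochondrial genes on the right. Filled points mark the 13 cytosolic genes past an adjusted p of 0.05, which lie between 0.31 and 1.28, and the mitochondrial points lie between -0.20 and 0.26.

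The largest rise was in Gars1, the glycyl enzyme. Its signal was 1696% to 1997% of the 75th percentile in low protein rats (median 1816%) and 662% to 969% in control rats (median 732%). The 2 diets did not overlap, and the change was 2.43-fold (log2 1.28 ± 0.09, SE, n = 6 rats per diet, limma adjusted p = 1.25e-05). Cars1, the cysteinyl enzyme, had 69.7% to 129% in low protein rats (median 99.2%) and 38.5% to 52.1% in control rats (median 43.0%). All low protein rats again stood above all control rats, at 2.18-fold (log2 1.13 ± 0.14, adjusted p = 0.000825), and slide 1 taken alone gave a log2 change of 1.34, against 0.70 for slide 2. Yars1, the tyrosyl enzyme, had 53.2% to 77.5% in low protein rats (median 66.0%) and 21.5% to 36.4% in control rats (median 31.2%). Its diets were clear of each other, at 2.17-fold (log2 1.12 ± 0.15, adjusted p = 0.00113). Iars1, the isoleucyl enzyme, had 254% to 424% in low protein rats (median 328%) and 130% to 224% in control rats (median 143%). It rose 2.15-fold (log2 1.10 ± 0.16, adjusted p = 0.00198), and control rat 5 was its highest control at 224%.

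A further 5 genes rose by less than 2-fold without overlap between diets. Mars1, the methionyl enzyme that also charges the initiator tRNA, had 442% to 538% in low protein rats (median 489%) and 225% to 304% in control rats (median 238%). The change was 1.97-fold (log2 0.98 ± 0.09, adjusted p = 7.88e-05). Lars1, the leucyl enzyme, known from human cells also as a leucine sensor upstream of mTORC1, had 527% to 684% in low protein rats (median 620%) and 280% to 392% in control rats (median 320%). It rose 1.90-fold (log2 0.92 ± 0.09, adjusted p = 0.000218). Sars1, the seryl enzyme, which also loads serine on the tRNA for selenocysteine, had 98.4% to 128% in low protein rats (median 107%) and 55.0% to 72.7% in control rats (median 62.6%). It rose 1.72-fold (log2 0.78 ± 0.09, adjusted p = 0.000429). Nars1, the asparaginyl enzyme, had 50.8% to 60.5% in low protein rats (median 55.9%) and 30.2% to 45.4% in control rats (median 34.0%). It rose 1.58-fold (log2 0.66 ± 0.10, adjusted p = 0.00289). Eprs1, a fused enzyme for glutamate and proline, had 750% to 936% in low protein rats (median 807%) and 469% to 657% in control rats (median 523%). It rose 1.53-fold (log2 0.62 ± 0.09, adjusted p = 0.0021). Control rat 5 was the highest control for each of these 5 genes, and all low protein rats lay above it.

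**Figure D2:**
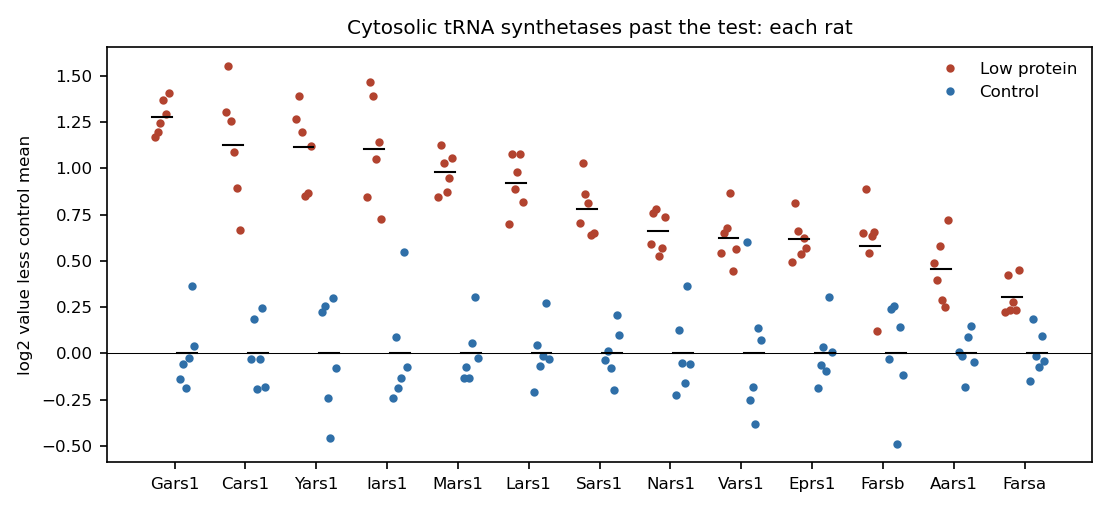
Each point is a rat, drawn as its log2 value less the control mean for the 13 cytosolic synthetases that rose, with low protein rats to the left of control rats and a bar at each diet's mean. In 11 genes the 2 diets are separate, while Vars1 and Farsb overlap.

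Smaller or less certain rises were seen in Aars1, in both subunits of the phenylalanyl enzyme and in Vars1. Aars1, the alanyl enzyme, had 871% to 1207% in low protein rats (median 993%) and 646% to 809% in control rats (median 729%), without overlap (1.37-fold, log2 0.45 ± 0.09, adjusted p = 0.0128). Farsa, the alpha subunit of the phenylalanyl enzyme, had 344% to 403% in low protein rats (median 352%) and 266% to 336% in control rats (median 289%), also without overlap (1.24-fold, log2 0.31 ± 0.08, adjusted p = 0.033). Farsb, the beta subunit, had 17.9% to 30.5% in low protein rats (median 25.7%) and 11.7% to 19.7% in control rats (median 17.1%). Low protein rat 6 lay within the control range and the other 5 above it (log2 0.58 ± 0.15, adjusted p = 0.0344). Vars1, the valyl enzyme, gave a dim signal of 1.33% to 1.78% in low protein rats (median 1.49%) and 0.751% to 1.48% in control rats (median 0.944%). Only 3 of 6 low protein rats exceeded the highest control, rat 1 (1.54-fold, log2 0.62 ± 0.15, limma adjusted p = 0.027). An alternative, called normexp below, corrected the median signal for background, added an offset of 50 units and then applied quantile normalization. With it the log2 change of Vars1 was 0.11 (limma adjusted p = 0.182), and such an offset shrinks the changes of dim probes.

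The calls of Farsa, Farsb and Vars1 turned on single rats. Farsa missed the threshold without low protein rat 2 or 6 or control rat 1, 3, 4 or 6 (log2 0.28 to 0.30, limma adjusted p = 0.0596 to 0.0735). Farsb missed it without low protein rat 1, 2, 3, 4 or 5 or control rat 1, 4 or 6 (0.49 to 0.59, adjusted p = 0.0531 to 0.0732). Vars1 missed it without low protein rat 2 or 4 or control rat 2, 3 or 4 (0.55 to 0.62, adjusted p = 0.0517 to 0.0664). With dim probes left in, the adjusted p was 0.11 for Farsa, 0.0931 for Farsb and 0.0744 for Vars1, and without scaling Farsa had 0.0934. Vars1 also missed it after quantile normalization (0.0761) and in the deposited values (0.237). The other 10 rises passed without any single rat.

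The other 6 cytosolic members did not pass the test. Rars1, the arginyl enzyme, was at 0.25 ± 0.09 (adjusted p = 0.138), Kars1, the lysyl enzyme, at 0.18 ± 0.08 (0.209), Tars1, the threonyl enzyme, at 0.17 ± 0.10 (0.372), and Wars1, the tryptophanyl enzyme, at 0.15 ± 0.09 (0.363). Rars1 and Kars1 had an unadjusted limma p under 0.05, and Rars1 passed after normexp (0.25, adjusted p = 0.0489). Qars1, the glutaminyl enzyme, had 219% to 241% in low protein rats (median 226%) and 215% to 242% in control rats (median 221%). Its diets overlapped almost wholly, and the 95% interval of its log2 change was -0.10 to 0.15. Hars1, the histidyl enzyme, had 28.7% to 36.2% in low protein rats (median 32.1%) and 32.7% to 41.4% in control rats (median 36.9%). It was the only cytosolic member with a negative log2 change on the probe used (-0.17 ± 0.08, adjusted p = 0.264), and its second probe gave 0.14.

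Grouped by structure and by amino acid, rises and uncalled genes stood in every group. Synthetases fall into class I and class II, which have unrelated catalytic folds. Of 9 cytosolic class I members 6 rose, and of 9 class II members 6 rose, with medians of 0.92 and 0.45, while Eprs1 holds an enzyme of each class. Of the 7 enzymes bound in the multi-synthetase complex, Eprs1, Iars1, Lars1 and Mars1 rose while Kars1, Qars1 and Rars1 did not pass. Of the 12 other cytosolic genes 9 rose. The medians of the complex members and the others were 0.62 and 0.60. Genes of enzymes for amino acids that rats need in the diet rose in 6 of 10 cases (median 0.44), Farsa and Farsb counted singly. Those for the other amino acids, arginine included, rose in 7 of 9 (median 0.66). No test was made between these groups. Among the 3 enzymes without a mitochondrial partner gene, Gars1 rose while Kars1 and Qars1 did not pass.

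Each mitochondrial synthetase is set here against the control rats on its own probe. Yars2, the tyrosyl enzyme, came nearest to the threshold, with 32.0% to 37.5% in low protein rats (median 34.9%) and 24.9% to 33.0% in control rats (median 28.9%). Of the 6 low protein rats 4 were above the highest control, and the log2 change was 0.26 ± 0.08 (limma adjusted p = 0.0627). It passed without control rat 2 (0.30, adjusted p = 0.0428), after quantile normalization (0.29, adjusted p = 0.0477) and after normexp (0.23, adjusted p = 0.033). Sars2, the seryl enzyme, had 41.3% to 54.2% in low protein rats (median 44.9%) and 36.5% to 44.4% in control rats (median 40.3%). Its change was 0.19 ± 0.08 (adjusted p = 0.199), and it passed only after normexp (0.21, adjusted p = 0.0422). Pars2, the prolyl enzyme, was at 0.21 ± 0.10 (adjusted p = 0.249), Ears2, the glutamyl enzyme, at 0.16 ± 0.17 (0.654), Rars2, for arginine, at 0.14 ± 0.07 (0.26), Hars2, for histidine, at 0.12 ± 0.08 (0.423) and Wars2, for tryptophan, at 0.11 ± 0.11 (0.607).

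The remaining 6 mitochondrial members were within 0.20 of zero. Tars2, Vars2 and Fars2, for threonine, valine and phenylalanine, were at 0.06, 0.02 and 0.01, and Nars2, for asparagine, was at -0.03. Cars2, the cysteinyl enzyme, had 13.8% to 25.1% in low protein rats (median 17.8%) and 13.2% to 22.4% in control rats (median 19.6%). Its mean change was -0.04 ± 0.18, with 0.23 on slide 1 and -0.57 on slide 2. Aars2, the alanyl enzyme, was dim, at 0.844% to 1.61% in low protein rats (median 1.15%) and 1.14% to 1.77% in control rats (median 1.23%). It had the lowest value of the group, at -0.20 ± 0.16 (adjusted p = 0.533). The highest upper bound of a 95% interval among mitochondrial members was 0.54, for Ears2, and 11 cytosolic members had a change above that bound. Among these 11, the intervals of Gars1, Cars1, Yars1, Iars1, Mars1, Lars1 and Sars1 lay wholly above it. Those of Nars1, Eprs1, Vars1 and Farsb began below it, at 0.44, 0.42, 0.30 and 0.26. The median SE was 0.10 for mitochondrial and 0.09 for cytosolic members, so the errors were of similar size.

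Where both enzymes of an amino acid were measured, their log2 values were subtracted within each array, which removes the scaling between arrays. This gave 13 pairs, each centred on its control mean and tested by an exact two-sided permutation test over all 924 splits of the 12 rats, whose smallest possible p is 0.00216. The p-values are for single pairs and were not adjusted. Eprs1 stands in the pairs with Ears2 and with Pars2, so not all pairs are independent. Iars1, Lars1 and Mars1, which rose, have no pair, since their mitochondrial partners had no probe. The cytosolic over mitochondrial ratio was higher in low protein rats in 12 of 13 pairs, with a median difference of 0.45. In 8 of these the exact p was under 0.05.

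The diets did not overlap in 3 pairs. The Cars1 over Cars2 ratio was 1.02 to 1.33 in low protein rats (median 1.13) and -0.31 to 0.74 in control rats (median -0.09), a difference of 1.17 ± 0.16 (SE, exact permutation p = 0.00216). The value of 0.74 belonged to control rat 5, and the next control was at 0.00. The Yars1 over Yars2 ratio was 0.56 to 1.07 in low protein rats (median 0.94) and -0.38 to 0.43 in control rats (median 0.00), a difference of 0.85 ± 0.16 (exact permutation p = 0.00216). The Sars1 over Sars2 ratio was 0.43 to 0.75 in low protein rats (median 0.60) and -0.18 to 0.26 in control rats (median -0.05), a difference of 0.59 ± 0.08 (exact permutation p = 0.00216). These 3 mitochondrial genes thus changed less than their cytosolic counterparts on the same arrays.

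Overlapping pairs with a higher ratio were those for asparagine (0.69 ± 0.13, exact permutation p = 0.00433), alanine (0.65 ± 0.18, exact p = 0.00866), valine (0.61 ± 0.17, exact p = 0.00866), proline with Eprs1 over Pars2 (0.41 ± 0.12, exact p = 0.00866) and phenylalanine with Farsa over Fars2 (0.30 ± 0.12, exact p = 0.0325). The valine ratio was 0.11 after normexp (exact p = 0.264), and Vars1 is its dim member. The alanine ratio, whose dim member is Aars2, was 0.345 after normexp (exact p = 0.00216). Farsa over Fars2 missed the threshold without low protein rat 3, 4, 5 or 6 or control rat 1 or 3 (exact p = 0.0541 to 0.0693). Eprs1 over Ears2 was at 0.45 ± 0.20 (exact p = 0.0563), while slide 1 alone gave 0.23 and slide 2 alone 0.90. It passed after normexp (exact p = 0.00866), in the deposited values (exact p = 0.0216) and without low protein rat 1 or 3 or control rat 6 (exact p = 0.0281 to 0.0498). The pairs for threonine (0.12, exact p = 0.461), arginine (0.11, exact p = 0.141) and tryptophan (0.04, exact p = 0.755) did not pass. Hars1 over Hars2 was the only lower ratio (-0.29 ± 0.12, exact p = 0.0433). With the mean of the Hars1 probes it was -0.14 (exact p = 0.206), and it missed the threshold without low protein rat 3, 4, 5 or 6 or control rat 1, 2, 3 or 6 (exact p = 0.0649 to 0.0909).

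**Figure D3:**
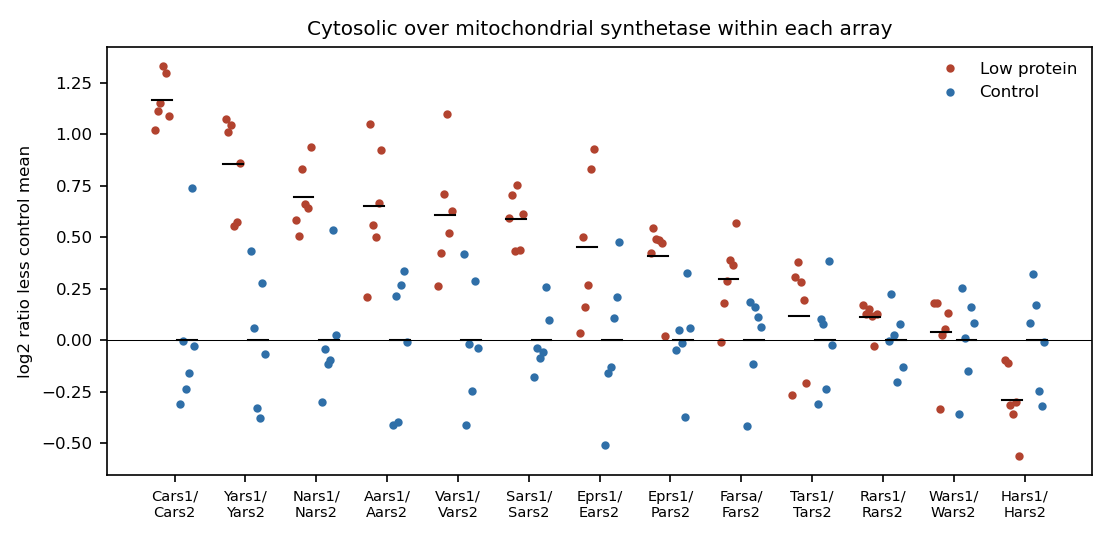
The log2 ratio of the cytosolic to the mitochondrial enzyme within each array, less its control mean, is plotted for 13 pairs, with low protein rats to the left of control rats and bars at the means. Cars1/Cars2, Yars1/Yars2 and Sars1/Sars2 are separate between diets, and Hars1/Hars2 is the only pair whose low protein mean is below its control mean.

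Every low protein rat shared the cytosolic pattern. The median over the 19 cytosolic members of a rat's log2 value less the control mean was 0.54 to 0.76 in low protein rats and -0.10 to 0.21 in control rats. Between 13 and 17 of the 19 genes exceeded the highest control value in each low protein rat. The same median over the 13 mitochondrial members was -0.07 to 0.24 in low protein rats and -0.06 to 0.19 in control rats, and 1 to 6 of 13 genes exceeded the highest control. Of all genes tested, 13.3% to 22.3% exceeded it in a low protein rat. The list medians of the log2 change were 0.59 and 0.67 on slides 1 and 2 for cytosolic members, and 0.08 and 0.10 for mitochondrial members. With 4 rats per diet on slide 1, 6 cytosolic members passed, and with 2 per diet on slide 2 none did, where 164 and 12 of all genes passed.

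**Figure D4:**
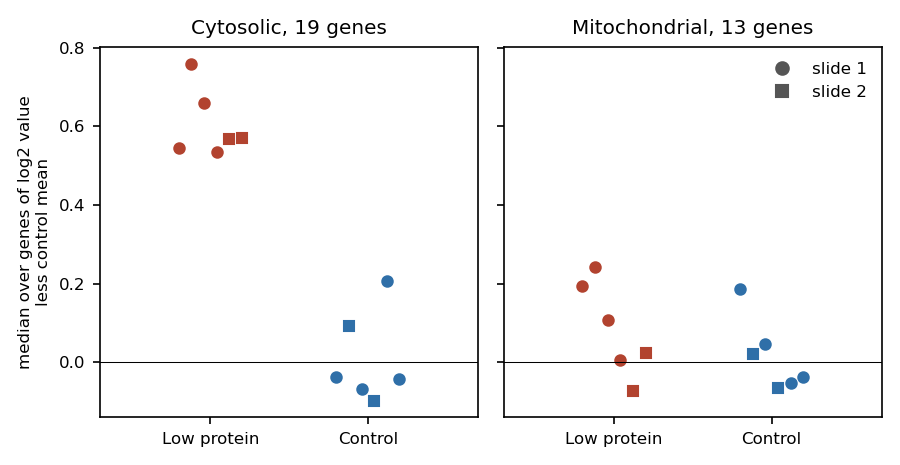
Each point is a rat and shows the median, over the cytosolic genes on the left and the mitochondrial genes on the right, of its log2 value less the control mean. Low protein rats stand left of control rats and squares mark slide 2. Cytosolic medians are 0.54 to 0.76 in low protein rats and -0.10 to 0.21 in control rats, while mitochondrial medians overlap.

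Second probes were present for 7 members, and of the genes that rose only Gars1 and Lars1 had one. The other rises, those of Cars1, Yars1, Iars1 and Mars1 included, each rest on a single probe. The second probe of Gars1 gave 1.20 beside 1.28, that of Lars1 0.89 beside 0.92, and that of Wars1 0.10 beside 0.15. For Fars2 the values were 0.08 and 0.01. The second probes of Ears2 and Pars2 were too dim to be tested. Only Hars1 had probes of opposite sign, and neither passed the test.

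The core of the C/EBP-ATF response element, TGATGNAA, was searched on both strands in RefSeq promoter windows (GRCr8, 250 bases before to 50 bases after the annotated start). It was present in 7 of the 17 cytosolic members with a window and in none of the 16 mitochondrial members, against 3.98% of all 33469 windows and 3.35% of those of protein-coding genes. Each of the 7 held the form TGATGCAA, which 0.795% of all windows held. Of the 7, 6 rose, among them Cars1, Iars1, Mars1, Nars1 and Yars1, and Tars1 did not pass. Of the 10 cytosolic members with a window and no match, 6 rose. No window was at hand for Gars1 or Rars1. A match describes letters in these windows and is not a measured binding site. The 6 stretches below are shown because they carry the shared form, on the gene's strand, 5′ to 3′, with the match in capitals; TTGCATCA is the same element on the other strand.
Cars1: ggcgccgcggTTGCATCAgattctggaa
Iars1: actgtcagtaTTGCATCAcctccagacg
Mars1: cccgttccggTTGCATCAgcgtgggctc
Nars1: ctaggtgatcTGATGCAAcgcttcagtc
Tars1: tggcgtcccgTTGCATCAgctggttagc
Yars1: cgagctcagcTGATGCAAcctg
The stretches lie in GRCr8 at chr1:208225335-208225362 (minus strand) for Cars1, chr17:15193659-15193686 (minus) for Iars1, chr7:65023753-65023780 (minus) for Mars1, chr18:60275779-60275806 (minus) for Nars1, chr2:62114812-62114839 (minus) for Tars1 and chr5:146820191-146820212 (plus) for Yars1. The match began 27 bases before the start in Tars1, 24 in Iars1, 17 in Mars1 and 14 in Nars1. It began at base 18 after the start in Cars1 and at base 39 in Yars1.

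**Figure D5:**
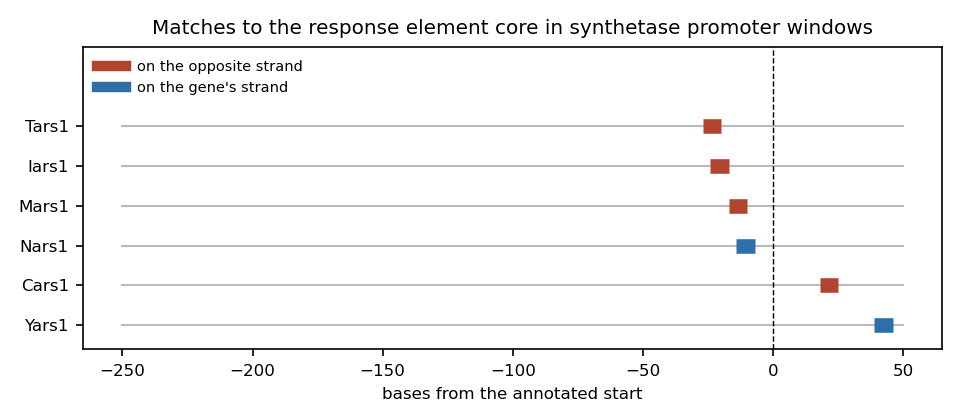
Positions of the matches to TGATGNAA are drawn along the promoter windows of the 6 cytosolic synthetases whose stretches are given, in bases from the annotated start, coloured by strand. Of these matches 4 lie before the start and 2 after it, from 27 bases before it in Tars1 to base 39 after it in Yars1.

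Hars1 and Hars2 are divergent neighbours whose windows, on opposite strands, share 243 bases with starts 143 bases apart. Neither holds the element and neither passed the test.

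Genes that work beside the synthetases were taken from lists of their own, and no test compares the lists. Of 6 measured scaffold and editing proteins, 1 rose, against 3.48% of all genes. Eef1e1, a scaffold of the multi-synthetase complex also known as Aimp3, had 45.8% to 60.5% in low protein rats (median 52.0%) and 25.4% to 48.0% in control rats (median 36.3%). Its diets overlapped (0.58 ± 0.14, limma adjusted p = 0.0336), and the call was lost in 7 of the 12 fits without a rat, those without low protein rat 2, 3 or 6 or control rat 1, 2, 3 or 4 (adjusted p = 0.0515 to 0.0711). The other scaffolds Aimp2 (0.34, adjusted p = 0.0832) and Aimp1 (0.29, adjusted p = 0.0873) did not pass. Aimp2 passed after normexp (adjusted p = 0.0341) and in the deposited values (0.039), and Aimp1 passed without control rat 5 (0.0461). In mitochondria, 0 of 3 measured partners passed, namely Qrsl1 (0.03) and Gatc (-0.05), subunits of the amidotransferase, and Mtfmt (-0.19), which formylates the initiator methionyl-tRNA.

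Of 15 measured genes of tRNA maturation, 5 rose (33.3%), against 3.48% of all genes, and 4 of them are given here. Trmt61a, the catalytic subunit of a tRNA adenosine methyltransferase, had 84.7% to 193% in low protein rats (median 104%) and 37.9% to 70.1% in control rats (median 49.9%), without overlap (1.15 ± 0.22, limma adjusted p = 0.00975). Pus1, a pseudouridine synthase, rose by 0.50 (adjusted p = 0.0066), and Nsun2, a tRNA cytosine methyltransferase, by 0.39 (adjusted p = 0.00711). Trmu, which thiolates mitochondrial tRNAs, rose by 0.73 (adjusted p = 0.0379). The call of Trmu was lost without low protein rat 2 or 6 or any single control rat (adjusted p = 0.0523 to 0.077). The list for tRNA delivery held 6 elongation factor genes, cytosolic and mitochondrial together, and none passed. None of 2 enzymes of selenocysteine charging passed either. The median change was 0.16 for the elongation factors. The unadjusted limma p was under 0.05 for 4, all higher, against 10.3% of all genes higher by that rule.

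The amino acid response was represented by 8 genes, of which 4 rose, against 3.48% of all genes. Asns, asparagine synthetase, had 362% to 677% in low protein rats (median 504%) and 9.68% to 45.3% in control rats (median 14.8%), without overlap (log2 4.75 ± 0.35). Trib3, a pseudokinase, rose by 1.60, Eif4ebp1, a repressor of translation initiation, by 1.25, and Atf4 itself by 0.82 (limma adjusted p = 0.00186). Atf4 had 1327% to 1959% in low protein rats (median 1584%) and 764% to 1107% in control rats (median 940%). Its diets were separate, as were those of the other 3. The remaining 4 genes did not pass, and 3 of them had negative values. Eif2ak4, the gene of Gcn2, was at -0.36 ± 0.10 (limma adjusted p = 0.0507), with 25.1% to 36.2% in low protein rats (median 30.3%) and 35.5% to 44.8% in control rats (median 37.6%). It passed as lower in 8 of 25 alternatives, among them normexp (adjusted p = 0.0379), the deposited values (0.0423) and the fit without low protein rat 2 (0.0386). Sesn2, a repressor of mTORC1, was at -0.39 (adjusted p = 0.377), Ddit3, a stress transcription factor, at -0.13 (0.621) and Chac1, which degrades glutathione, at 0.13 (0.774).

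Ribosomal protein genes give a further comparison of the compartments. Of 87 measured cytosolic ribosomal protein genes 14 rose (16.1%), with a median change of 0.16. That list was taken by symbol, so it also holds paralogs and like-named copies. Of 68 mitochondrial ribosomal proteins 3 rose, with a median of 0.05, and their share of 4.41% was close to the 3.48% of all genes. Limma's unadjusted p was under 0.05 for 51 of the 87 cytosolic and 18 of the 68 mitochondrial genes. All of these were higher, against 10.3% of all genes higher by that rule. No member of either list fell. The median over the cytosolic synthetases, 0.62, was larger than over the cytosolic ribosomal proteins, whose largest change was 0.42.

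Markers of liver cell types were examined for the same rats. Of 5 hepatocyte markers 2 were lower in low protein livers, against 3.05% of all genes. Their summed level, in units of the 75th percentile, was 357 to 456 in low protein rats and 418 to 491 in control rats. For 5 Kupffer cell and macrophage markers the sum was 13.3 to 19.6 in low protein rats and 13.1 to 27.8 in control rats, with none called. All 5 of these markers had negative log2 changes (median -0.32), 3 of them with an unadjusted limma p under 0.05, and all 5 hepatocyte markers were negative too (median -0.20). The share of all genes lower at that unadjusted p was not counted. For 5 stellate cell markers the sum was 1.93 to 2.76 in low protein rats and 2.15 to 2.75 in control rats. For 4 endothelial markers it was 10.3 to 12.6 in low protein rats and 10.05 to 12.6 in control rats, and none of either list was called. Of 2 measured lymphocyte markers 1 was lower, and none of the bile duct, erythroid and muscle markers passed. The part of these markers in the synthetase changes was not tested.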

How the data were processed

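Liver RNA of 12 rats was hybridised to Agilent single-colour arrays, 1 rat each. The deposited scanner files hold signal intensity per spot, made by the authors with Agilent Feature Extraction (version 12.0.3.1 per the file headers), with the background subtracted in the processed signal. The authors' value table, also in intensity units, equals the median signal of each spot in the scanner files and served as an alternative. Its scale is linear, it is not centred, and its column medians were 51.5 to 65.5.

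The processed signal was divided by its array's 75th percentile and taken to log2. Outlier spots (453 to 739 per array) were dropped, none was saturated, and repeated spots were averaged per probe. A probe had to be well above background on 5 or more arrays within either diet (n = 6), and the brightest probe on average stood for a gene. Of 45598 probes, 21208 (46.5%) were named by RefSeq accession through a table of the GRCr8 assembly. The headers name another build, so coordinates are given only for RefSeq promoter windows. Diets were compared in R 4.3.3 by limma 3.58.1, using lmFit with eBayes and a two-sided test, adjusted by Benjamini-Hochberg. Tables were handled with data.table (1.17.8) and, in Python 3.11.15, with numpy 2.4.6 and pandas 2.3.3, and plots came from matplotlib 3.10.9. The fit was tested on simulated data.

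The members and lists were chosen with earlier results of these data known, so counts over a list are descriptions. All members were named, and other genes were named only from the lists; a few items are not reported here. The number of arrays limits the precision. Nothing in the labels links rats that share a number. The main fit therefore has no pairing. Alternatives covered scaling, background correction, deposited values, the filter, outliers, probe choice, the spread estimate, slide, replicate number, each rat left out and a stricter threshold. The study's metabolites and PCR assays were not used here.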

Additional observations from a re-analysis of the deposited data

Results flagged for a closer look

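Among 94 sets of 6 values (each member and each pair ratio per diet, and the list medians), 7 had a rat whose gap to its nearest neighbour was more than 0.625 of the whole range. Chance flags about 1 set in 20. For single genes these were Kars1, where low protein rat 3 was lowest (log2 value 0.75, next 0.89, gap share 0.848), Hars2, where low protein rat 6 was highest (-0.60, next -0.84, gap share 0.668), and Tars2, where control rat 1 was highest (-1.51, next -1.83, gap share 0.68). For pair ratios these were Cars1 over Cars2, where control rat 5 was highest (0.74, next 0.00, gap share 0.708), and Eprs1 over Pars2, where low protein rat 6 was lowest (0.02, next 0.42, gap share 0.77). Low protein rat 5 was lowest for Rars1 over Rars2 (-0.03, next 0.12, gap share 0.722), and low protein rat 3 for Wars1 over Wars2 (-0.34, next 0.03, gap share 0.696).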

How the results depend on the processing

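All alternatives kept 0 members lower. The cytosolic count of 13 stayed between 10 and 13 when a rat was left out, was 6 on slide 1 and 0 on slide 2, where fewer rats were fitted, and was 11 with replicate number as a block (replicate block, 1411 genes in all). Correlations of deviations from the diet mean between same-numbered rats were 0.03 to 0.26, above 0.1 for 5 of 6 numbers, and 2 of 6 rats of each diet correlated best with their own number. The block ended the calls of Vars1 and Aars1 (limma adjusted p = 0.0727 and 0.0537). The mitochondrial count of 0 became 1 after quantile normalization and 2 after normexp, and was 0 to 1 without a rat (1 without control rat 2). The cytosolic median of 0.62 was 0.75 without scaling and 0.50 after normexp, and the mitochondrial median of 0.11 was 0.24 without scaling, which moved the median of all genes to 0.11, from -0.03 with it. The 3 pairs without overlap became 5 on slide 1 and 8 on slide 2, and 3 to 5 without a rat. Fewer rats separate more easily, so these counts cannot be set against that of all 12 rats. Of all genes, 1429 passed (761 higher), 2109 after normexp, 1750 with a trended and robust spread estimate, 1648 after quantile normalization, 891 without scaling (679 higher), 618 without the filter, 437 at an adjusted p of 0.01, 164 on slide 1, 12 on slide 2 and 856 to 1307 without a rat (856 without control rat 3).

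Signs turned in genes near 0. After quantile normalization Qars1 was at -0.0034 and the Wars1 over Wars2 ratio at -0.022. Without scaling Gatc, Nars2 and Cars2 were at 0.084, 0.098 and 0.092. After normexp Aars2, Gatc, Nars2 and Cars2 were at 0.0011, 0.0016, 0.034 and 0.037. In the deposited values Nars2, Qrsl1 and Vars2 were at 0.015, -0.00021 and -0.0496. On slide 1 Nars2 and Cars2 were at 0.045 and 0.23, and on slide 2 Fars2, Ears2 and Vars2 at -0.0058, -0.23 and -0.084. Without a rat the ranges were -0.14 to 0.036 for Cars2, -0.032 to 0.11 for the Wars1 over Wars2 ratio, -0.091 to 0.00045 for Nars2, -0.0036 to 0.064 for Qrsl1, -0.037 to 0.067 for Vars2 and -0.037 to 0.064 for Fars2. None of these values passed the test.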
